A study of Mus musculus with 78 samples.

Results

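The 6 effector cytokine genes followed here are Ifng, Tnf, Lta, Ltb, Il2 and Csf2, which encode interferon gamma, tumour necrosis factor, lymphotoxin alpha, lymphotoxin beta, interleukin 2 and the granulocyte-macrophage colony-stimulating factor GM-CSF. They were chosen by gene name from the count table. Of the 6, 4 were measured among the 14695 genes of the table: Ifng, Tnf, Lta and Ltb. Il2 and Csf2 were not analysed here. All 4 measured genes passed the filter on low counts in every fit, and none of them was kept through 1 group alone, since the lowest count in any library was 409 reads for Tnf, 1090 for Ltb, 1922 for Lta and 4999 for Ifng.

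CD8+ T cells were isolated from lymph node and spleen of C57BL/6J mice, activated, and on day 3 treated for 3 h. In the nutrient experiment the cells were kept without arginine, without the branched-chain amino acids leucine, isoleucine and valine (BCAA), without glucose, without glutamine or without methionine for comparison with cells labelled Control. In the drug experiment cells were given halofuginone, which inhibits the enzyme that charges proline tRNA, Torin1, which acts against the mTOR kinase, or 4EGI-1, which keeps the cap-binding protein eIF4E from eIF4G, and the cells they were set against received DMSO, the solvent. The labels give no doses. From each lysate, one portion gave total RNA and another was spread over a sucrose gradient, from which the pooled fractions 9 to 13, with several ribosomes on each mRNA, gave polysome RNA. Each of these groups held 3 libraries in each fraction, 60 in all, and a further 18 monosome libraries were not analysed here. In polysome RNA, 1 library of Torin1 (replicate 3) and 1 of 4EGI-1 (replicate 2) have an added letter R, unexplained in the labels, and leaving out either ended no call of a member in polysome RNA. The labels give 1 strain and no other allele, and they do not say whether the libraries of a group came from separate cultures or animals, so the p-values measure the spread between these libraries, which may be technical. Counts per library summed to between 15144663 and 30637485 in nutrient total RNA, 29917770 and 54272886 in nutrient polysome RNA, 17506526 and 23099949 in drug total RNA, and 17846266 and 24929556 in drug polysome RNA. The CD8 T cell markers (Cd3e, Cd3d, Cd3g, Cd8a, Cd8b1 and Gzmb, 6 of 6 measured) summed to at least 5413 CPM (counts scaled to a common library size) in every library. Their sums, by group or over several groups, are given beside the members. Of the markers of other cells, the B cell gene Cd79a was at most 0.599 CPM and the dendritic cell gene Zbtb46 at most 3.00 CPM in any library, the B cell gene Cd79b reached 18.8 CPM, and the markers measured for CD4 T cells (2 of 4, Zbtb7b and Foxp3) summed to at most 24.9 CPM. The part of those cells in the results was not tested, and the myeloid and NK cell markers on the list were not analysed here.

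Interferon gamma is the cytokine by which CD8+ T cells act on macrophages and on antigen presentation in target cells, and it signals through a receptor of 2 different chains. Tumour necrosis factor and the lymphotoxins belong to one ligand family: TNF and lymphotoxin alpha homotrimers bind the TNF receptors, while lymphotoxin beta anchors lymphotoxin alpha to the membrane in a heterotrimer that binds the lymphotoxin beta receptor. In T cells, transcription of these genes is switched on by signals of the antigen receptor through NFAT, AP-1 and NF-kB, and the mRNAs of Ifng and Tnf carry AU-rich elements at which RNA-binding proteins set decay and translation.

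In the RefSeq annotation of mouse chromosome 17 (GRCm38.p6), Ltb, Tnf and Lta follow each other with no protein-coding gene between them, whereas Ifng lies on chromosome 10. The 250 bases before the annotated start of each gene are shown because 3 of the 4 genes share a locus and, as given below, Ltb did not vary with the other 2. The sequences are RefSeq's for GRCm38.p6, read 5′ to 3′ on the strand of the gene, and capitals mark the motif matches described after them.
Ifng, chr10:118440796-118441045, plus strand: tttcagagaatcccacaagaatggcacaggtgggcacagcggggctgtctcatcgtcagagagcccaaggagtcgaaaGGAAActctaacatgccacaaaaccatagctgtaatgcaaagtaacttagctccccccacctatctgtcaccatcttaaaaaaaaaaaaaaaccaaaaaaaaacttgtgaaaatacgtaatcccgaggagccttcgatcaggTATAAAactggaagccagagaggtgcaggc
Tnf, chr17:35202008-35202257, minus strand: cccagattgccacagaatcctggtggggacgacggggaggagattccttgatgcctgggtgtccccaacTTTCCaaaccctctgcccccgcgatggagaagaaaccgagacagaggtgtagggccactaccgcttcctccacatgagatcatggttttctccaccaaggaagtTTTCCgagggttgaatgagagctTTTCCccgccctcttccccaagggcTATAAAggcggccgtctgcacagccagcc
Lta, chr17:35205352-35205601, minus strand: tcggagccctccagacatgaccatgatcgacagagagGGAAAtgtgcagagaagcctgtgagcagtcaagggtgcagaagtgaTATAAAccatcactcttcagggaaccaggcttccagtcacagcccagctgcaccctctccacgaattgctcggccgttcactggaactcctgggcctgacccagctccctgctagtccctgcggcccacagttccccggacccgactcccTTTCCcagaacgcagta
Ltb, chr17:35194257-35194506, plus strand: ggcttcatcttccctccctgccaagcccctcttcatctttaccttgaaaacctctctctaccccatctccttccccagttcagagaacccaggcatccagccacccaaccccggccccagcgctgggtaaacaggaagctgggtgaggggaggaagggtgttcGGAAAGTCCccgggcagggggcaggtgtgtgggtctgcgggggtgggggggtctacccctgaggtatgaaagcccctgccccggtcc

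Both strands of each window were searched for an NF-kB site (GGACTTTCC), the NFAT core (GGAAA), an AP-1 site (TGANTCA), a cAMP response element (TGACGTCA) and a TATA box (TATAAA). The NFAT core was found 3 times before Tnf, 2 times before Lta and 1 time each before Ifng and Ltb, and 55.6% of the 32851 RefSeq promoter windows of that length hold it. The TATA letters began 30 bases before the start of Ifng and 29 bases before that of Tnf, and 167 bases before that of Lta, against 12.4% of all windows that hold them anywhere. The Ltb window held no TATA match. It had the only NF-kB match of the 4 windows, 87 to 79 bases before the start and on the opposite strand, a match that 0.283% of all windows hold and whose first 5 letters on the printed strand are also its NFAT core. The AP-1 and cAMP response element letters were in none of the 4 windows, and 6.75% and 1.55% of all windows hold them. A match says that the letters are there, and the data hold no measure of binding to them. Only the letters given were searched, so a window without a match may still hold a variant of the site.

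In total RNA after 3 h of deprivation, Ifng, Lta and Tnf fell without glucose, and Ifng alone of the 4 fell without glutamine. Tnf rose without arginine, BCAA and methionine, Lta without BCAA and methionine, and Ifng without methionine. Of these rises, the calls of Tnf without arginine, Lta without BCAA and Ifng without methionine were lost on leaving out some single libraries. Ltb passed the test in no condition. The groups were compared in edgeR's quasi-likelihood F test over all 12642 genes tested, with p-values adjusted by the Benjamini-Hochberg method and called at 0.05. All levels are scaled within a fraction by TMM, which assumes that most genes keep their relative level, so each change is relative to the rest of the mRNAs. In such bulk RNA, fewer cells that express a cytokine and less mRNA per cell cannot be told apart. All 5 deprivations share the 3 Control libraries. The members called numbered 1 of 4 without arginine, where 9.24% of all genes were called, 2 of 4 without BCAA (30.1% of all genes), 3 of 4 without glucose (40.8%), 1 of 4 without glutamine (39%) and 3 of 4 without methionine (35.2%). The median log2 fold change of the 4 members was 0.12, 0.20, -0.58, 0.0022 and 0.29 in that order, beside medians of all genes between -0.0078 and 0.025.

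**Figure D1:**
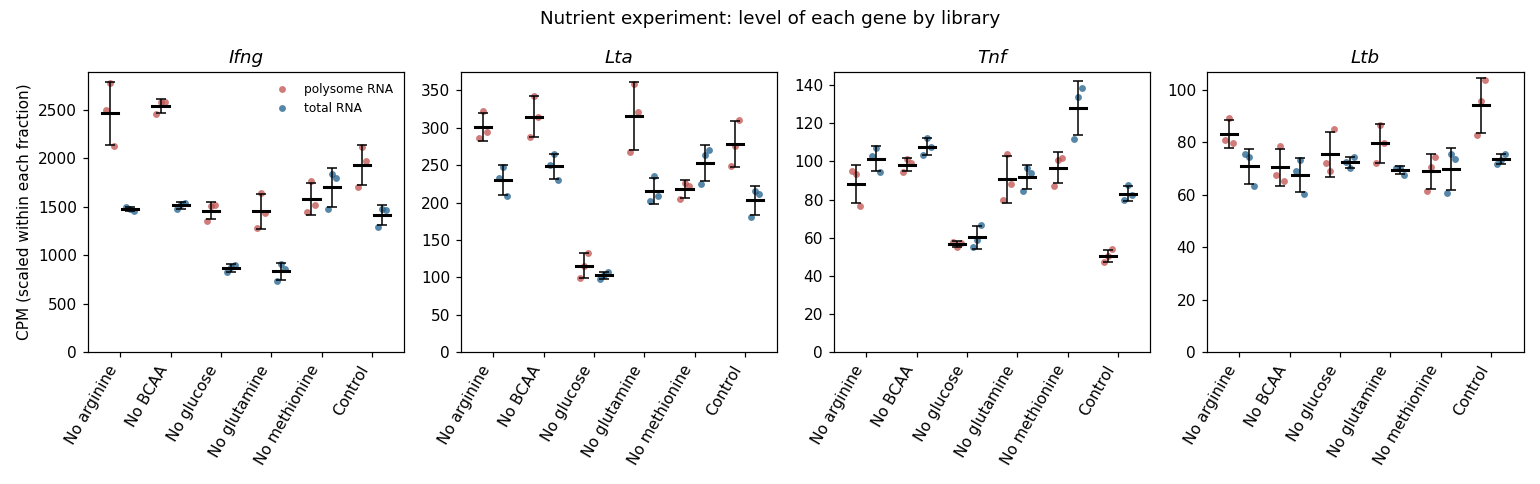
Level of each gene in every library of the nutrient experiment, in CPM scaled within each fraction (vertical axis, from 0; the axes differ between genes). Points are single libraries, horizontal bars the mean of 3 and whiskers the SD, with polysome RNA in red at the left of each pair and total RNA in blue. Without glucose, total Lta lay between 98.2 and 107 CPM, below all 3 Control libraries, and polysome Tnf was lowest in Control.

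Ifng, whose product is the signature cytokine of effector CD8+ T cells, had 824, 882 and 899 CPM in total RNA without glucose and 733, 911 and 855 CPM without glutamine, against 1294, 1472 and 1468 CPM in Control. All 6 libraries of both deprivations lay below all 3 Control libraries. The log2 fold changes were -0.70 ± 0.084 (SE, adjusted p = 1.22e-06, edgeR) without glucose and -0.76 ± 0.084 (adjusted p = 2.95e-07) without glutamine, or 0.615 and 0.590 times the Control level. Without methionine the libraries had 1471, 1836 and 1792 CPM, of which the lowest lay within the Control range, and the log2 fold change was 0.27 ± 0.084 (adjusted p = 0.0162). That call was lost when Control replicate 1 or methionine-free replicate 2 or 3 was left out (adjusted p = 0.0869, 0.0731 and 0.0717) and when the 2 groups were fitted alone (0.0966). Ifng averaged 1477 ± 19.8 CPM without arginine and 1512 ± 33.2 CPM without BCAA (SD, n = 3 each), with adjusted p = 0.686 and 0.412. In the order of the means, glutamine-free and glucose-free libraries overlapped at the bottom, no library of either reached those of Control, and Control, arginine-free, BCAA-free and methionine-free libraries each overlapped with the next.

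The CD8 T cell markers also summed lower in total RNA, to between 5992 and 6514 CPM without glucose and 5413 and 6405 CPM without glutamine, against 8137 to 9492 CPM in Control. Over all nutrient total RNA libraries Cd8a had 82.3 to 121 CPM, Cd8b1 80.7 to 104 CPM and Cd3e 47.8 to 85.6 CPM. The sums therefore rest mostly on Cd3d, Cd3g and Gzmb, and a lower sum need not mean fewer CD8 T cells. Those sums were 7610 to 7889 CPM without BCAA, also below Control, and overlapped with Control without arginine (8750 to 9032 CPM) and methionine (6850 to 8674 CPM). The CD4 T cell markers summed to 18.8 to 21.5 CPM without glucose, 21.1 to 24.9 CPM without glutamine, 18.3 to 21.7 CPM without BCAA and 15.6 to 18.6 CPM without methionine, against 10.6 to 12.6 CPM in Control. Foxp3 was at most 0.109 CPM in nutrient total RNA, so these CD4 sums are nearly all Zbtb7b, at 10.4 to 24.9 CPM. A change of Zbtb7b per cell cannot be told from a change in the share of CD4 T cells. The groups in which Ifng fell had the lowest CD8 marker sums. The CD4 marker sums lay above Control in these groups and also without BCAA and methionine. In polysome RNA the CD8 marker sums without BCAA, glucose, glutamine and methionine lay between 7386 and 10320 CPM, against 11660 to 14980 CPM in Control. Without arginine they were 13060 to 15080 CPM, which overlapped with Control. Cd8a, Cd8b1 and Cd3e had at most 184, 117 and 111 CPM in any nutrient polysome library. The part of these shifts in the member results was not tested.

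Lta, the soluble lymphotoxin, had 98.2, 103 and 107 CPM without glucose, against 181, 216 and 211 CPM in Control. Every glucose-free library was below every other total RNA library of the nutrient experiment, and the log2 fold change was -0.98 ± 0.089 (adjusted p = 2.80e-08), 0.507 times the Control level. Without methionine Lta had 225, 263 and 271 CPM, all above Control, with a log2 fold change of 0.32 ± 0.087 (adjusted p = 0.00673). Without BCAA it had 250, 265 and 230 CPM, also above Control without overlap, with a log2 fold change of 0.29 ± 0.087 (adjusted p = 0.0141). This call was lost without Control replicate 1 (adjusted p = 0.0869) or without BCAA-free replicate 2 (0.0718). Lta averaged 230 ± 19.9 CPM without arginine and 216 ± 17.6 CPM without glutamine, beside 203 ± 18.8 CPM in Control (SD, n = 3 each), and neither difference passed the test (adjusted p = 0.220 and 0.466).

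Tnf, the product of which is made within hours of activation and binds 2 receptors, had 112, 134 and 138 CPM without methionine, 103, 112 and 108 CPM without BCAA, and 103, 107 and 94.3 CPM without arginine, against 79.5, 87.7 and 82.2 CPM in Control. The libraries of these 3 deprivations all lay above Control. The log2 fold changes were 0.62 ± 0.084 without methionine (adjusted p = 5.57e-06), 0.37 ± 0.084 without BCAA (0.00170) and 0.29 ± 0.084 without arginine (0.0363). The arginine call was lost without Control replicate 1 or 3 (adjusted p = 0.140 and 0.104) and without arginine-free replicate 1 or 2 (0.114 and 0.145), at log2 fold changes between 0.25 and 0.28 in these fits. Without glucose Tnf had 55.2, 58.6 and 66.7 CPM, below all other total RNA libraries, and its log2 fold change was -0.47 ± 0.085 (adjusted p = 0.000174). Without glutamine it had 84.5, 96.7 and 94.1 CPM, which overlapped with Control, and the change did not pass (0.14 ± 0.084, adjusted p = 0.196).

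Ltb, the membrane anchor of lymphotoxin, stood apart from its neighbours on the chromosome in that no deprivation was called. Group means lay between 67.6 ± 6.56 CPM without BCAA and 73.5 ± 1.92 CPM in Control (SD, n = 3 each), and log2 fold changes lay between -0.12 and -0.022, with adjusted p of 0.307 or more. The 95% intervals of the log2 fold change over the 5 deprivations reached from -0.29 to 0.14.

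The deprivations were also set against each other in total RNA, in the pairs that hold glucose or glutamine and in methionine against arginine and against BCAA. Without glucose, 3 of 4 members were lower than without arginine (37.2% of all genes called), without BCAA (28.7%) and without methionine (34%). For Lta the log2 fold changes were -1.16, -1.27 and -1.30 in these pairs, for Ifng -0.77, -0.80 and -0.97, and for Tnf -0.75, -0.84 and -1.09, each with an adjusted p of 1.17e-06 or less. Between glucose-free and glutamine-free cells (32.5% of all genes called), Lta differed by -1.07 ± 0.089 (adjusted p = 1.53e-08) and Tnf by -0.61 ± 0.085 (1.33e-05). The difference in Ifng was 0.060 ± 0.084 (adjusted p = 0.622). Without glutamine, Ifng was lower by -0.83, -0.86 and -1.03 on the log2 scale than without arginine (36.1% of all genes called), BCAA (14.2%) and methionine (25.7%), with adjusted p of 4.50e-07 or less. Tnf was lower without glutamine than without methionine (-0.48 ± 0.084, adjusted p = 0.000246). Tnf was the 1 member called between methionine-free and arginine-free cells (25.1% of all genes), at 0.34 ± 0.084 (adjusted p = 0.00492). Between methionine-free and BCAA-free cells (13.4% of all genes called), edgeR called 0 of 4, with 1 (Tnf) at an unadjusted p under 0.05.

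In polysome RNA, where 12417 genes were tested, Tnf rose in 4 of 5 deprivations, Ltb fell in 4 of 5, Ifng rose in 2 and fell in 3, and Lta fell in 2. The members called were 2 of 4 without arginine (40.5% of all genes called), 3 of 4 without BCAA (56.1%), 3 of 4 without glucose (59%), 3 of 4 without glutamine (64.5%) and 4 of 4 without methionine (69%). With most of the genes called in 4 of these comparisons, the number of members called is not a result about the members. Sizes and directions are given instead, and several were ordinary among all genes. By percentile (percent of genes with a lower change), Ifng, Lta and Ltb stood at 35.6, 32.7 and 27.4 without methionine. Ltb stood at 36.5 without glutamine, 27.8 without glucose and 18.8 without BCAA. Ifng stood at 22.3 without glucose, 25.9 without glutamine, 84.6 without arginine and 77.3 without BCAA. Lta without glucose stood at 1.55, and the called rises of Tnf between 89.5 and 98.2.

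Polysome Tnf had 94.8, 93.2 and 76.6 CPM without arginine, 94.5, 101 and 98.9 CPM without BCAA, 79.6, 104 and 88.4 CPM without glutamine and 87.3, 101 and 102 CPM without methionine, against 47.4, 50.4 and 53.9 CPM in Control. Each of these 12 libraries was above the highest Control library. The log2 fold changes were 0.80 ± 0.096 (adjusted p = 7.97e-06), 0.96 ± 0.096 (1.18e-07), 0.84 ± 0.096 (3.30e-07) and 0.94 ± 0.096 (6.04e-08) in that order. Without glucose it had 57.8, 54.9 and 57.1 CPM, which also lay above Control without overlap, but the change did not pass the test (0.16 ± 0.096, adjusted p = 0.152).

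Polysome Ifng had 2493, 2770 and 2124 CPM without arginine and 2459, 2577 and 2576 CPM without BCAA, against 1702, 2112 and 1975 CPM in Control. Both groups lay above Control without overlap, with log2 fold changes of 0.35 ± 0.10 (adjusted p = 0.0118) and 0.40 ± 0.10 (0.00349). The arginine call was lost without Control replicate 1 (adjusted p = 0.0596) and without arginine-free replicate 2 (0.0808). Ifng fell without glucose, to 1357, 1502 and 1513 CPM (-0.41 ± 0.10, adjusted p = 0.00259), and without glutamine, to 1278, 1644 and 1433 CPM (-0.41 ± 0.10, adjusted p = 0.00203), all below Control. Without methionine it had 1447, 1766 and 1516 CPM, which overlapped with Control, and fell by 0.29 ± 0.10 on the log2 scale (adjusted p = 0.0188). The methionine call was lost without Control replicate 2 or 3 or methionine-free replicate 1 or 3 (adjusted p = 0.0954, 0.0533, 0.0887 and 0.0770).

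Polysome Lta had 99.1, 115 and 133 CPM without glucose and 204, 227 and 223 CPM without methionine, against 249, 276 and 311 CPM in Control. The libraries of both groups lay below Control, and the glucose-free ones lay below all others. The log2 fold changes were -1.27 ± 0.11 (adjusted p = 2.24e-08) and -0.35 ± 0.11 (0.00885), the second of which did not pass without Control replicate 3 (adjusted p = 0.0611). Lta averaged 301 ± 18.8 CPM without arginine, 315 ± 27.4 CPM without BCAA and 316 ± 46.0 CPM without glutamine, beside 278 ± 31.0 CPM in Control (SD, n = 3 each), with adjusted p of 0.164 or more. Leaving out glutamine-free replicate 1 gave an adjusted p of 0.0336 there, at a log2 fold change of 0.29.

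Polysome Ltb had 61.6, 70.7 and 74.6 CPM without methionine and 67.6, 78.4 and 65.3 CPM without BCAA, against 82.9, 95.8 and 104 CPM in Control. No library of these 2 groups reached Control, and the log2 fold changes were -0.45 ± 0.10 (adjusted p = 0.000724) and -0.42 ± 0.10 (0.00206). The other 2 calls were smaller and overlapped with Control: Ltb had 72.1, 69.2 and 85.0 CPM without glucose (-0.32 ± 0.10, adjusted p = 0.0122) and 72.1, 86.8 and 79.9 CPM without glutamine (-0.24 ± 0.10, adjusted p = 0.0460). The glucose call was lost without glucose-free replicate 2 (adjusted p = 0.0670) or Control replicate 3 (0.0768). The glutamine call was lost without Control replicate 2 or 3 or glutamine-free replicate 1 or 3 (adjusted p between 0.0867 and 0.214), and with RLE size factors or without the filter on low counts (0.0538 and 0.0664). Without arginine Ltb averaged 83.3 ± 5.31 CPM, beside 94.1 ± 10.5 CPM in Control (adjusted p = 0.184).

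Levels in polysome and total RNA were joined in the ratio of polysome CPM to total CPM of the same lysate, with both fractions scaled together and 13072 genes tested. The quantity tested is the change of this ratio in a condition against Control, the interaction of fraction and condition. In Control cells, 3 of the 4 members stood higher in polysome than in total RNA and Tnf stood lower. In deprivation the ratio of Tnf rose in 4 of 5 comparisons and those of the other 3, where called in this fit, fell. This fit leaves out the pairing of both fractions by lysate. With the lysate as a block, Ifng was also called higher in 2 comparisons, Tnf higher without methionine, Lta lower without glucose and Ltb lower without glutamine. In the fit without the block, members called were 1 of 4 without arginine (16.5% of all genes called), 2 of 4 without BCAA (26.9%), 2 of 4 without glucose (25.8%), 1 of 4 without glutamine (35.2%) and 3 of 4 without methionine (49.1%). The median change of the ratio over all genes was below 0 in each, between -0.15 without glutamine and -0.039 without arginine. Without methionine, 3904 of the 13072 genes were called lower. The falls of Ifng, Lta and Ltb there stood at percentiles 21.1, 16.2 and 30.3 of the changes of all genes, so falls of their size were common. Those of Ltb without BCAA and glucose stood at 23.3 and 22.8, and the called rises of Tnf between 91.8 and 94.4.

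Tnf had ratios of 0.922, 0.880 and 0.821 without arginine, 0.845, 0.866 and 0.872 without BCAA, 0.985, 0.901 and 0.836 without glucose, 0.864, 0.989 and 0.876 without glutamine and 0.744, 0.726 and 0.702 without methionine, against 0.594, 0.596 and 0.669 in Control. All 15 lysates of the deprivations lay above the 3 of Control. The ratio rose without arginine (log2 change 0.50 ± 0.13, adjusted p = 0.0102), BCAA (0.48 ± 0.13, adjusted p = 0.00759), glucose (0.54 ± 0.13, adjusted p = 0.00280) and glutamine (0.56 ± 0.13, adjusted p = 0.00131). Leaving out arginine-free lysate 1 took the first of these to an adjusted p of 0.0743. Without methionine the change was 0.22 ± 0.13 and did not pass (adjusted p = 0.168), whereas it passed with the lysate as a block in the fit (0.23, adjusted p = 0.0272).

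Ifng had ratios of 0.938, 0.926 and 0.806 without methionine, against 1.31, 1.49 and 1.38 in Control. The methionine-free lysates were the only ones of the experiment below 1, and the ratio fell by 0.65 ± 0.14 on the log2 scale (adjusted p = 0.000328). In the other 4 deprivations the Ifng ratio averaged between 1.58 ± 0.040 without BCAA and 1.68 ± 0.21 without arginine (SD, n = 3 each). The lysates without BCAA, glucose and glutamine, at 1.54 or more, all lay above those of Control. The log2 changes in these 4 were between 0.19 and 0.27 and did not pass the test (adjusted p between 0.208 and 0.365). With the lysate as a block the changes without arginine (0.27, adjusted p = 0.0253) and without glutamine (0.21, adjusted p = 0.0487) passed.

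Lta had ratios of 0.864, 0.829 and 0.784 without methionine, against 1.37, 1.32 and 1.5 in Control. No other lysate of the experiment had an Lta ratio as low, and the log2 change was -0.76 ± 0.15 (adjusted p = 0.000112). Without glucose the ratios were 0.949, 1.07 and 1.21, also below Control without overlap, and the change of -0.37 ± 0.16 did not pass (adjusted p = 0.0732), while it did with the lysate as a block (-0.38, adjusted p = 0.00435) and without glucose-free lysate 3 (-0.47, adjusted p = 0.0365). Lta ratios without arginine, BCAA and glutamine averaged 1.32 ± 0.099, 1.20 ± 0.12 and 1.35 ± 0.12, beside 1.40 ± 0.093 in Control (SD, n = 3 each), with adjusted p of 0.306 or more. The BCAA-free lysates, at 1.06, 1.24 and 1.30, all lay below Control.

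Ltb had ratios of 0.968, 0.903 and 0.967 without methionine, 0.906, 1.02 and 1.03 without BCAA and 0.935, 0.947 and 1.12 without glucose, against 1.15, 1.35 and 1.41 in Control. These 3 groups lay below Control without overlap, and the log2 changes were -0.47 ± 0.14 (adjusted p = 0.00662), -0.41 ± 0.14 (0.0331) and -0.38 ± 0.14 (0.0451). The BCAA call was lost with RLE size factors, DESeq2 and a fit of the 2 groups alone (adjusted p = 0.0735, 0.0587 and 0.0843) and without BCAA-free lysate 1 or Control lysate 2 or 3 (0.143, 0.107 and 0.121). The glucose call was lost with the same 3 settings (0.122, 0.109 and 0.0809) and without glucose-free lysate 1 or 2 or Control lysate 2 or 3 (adjusted p between 0.126 and 0.163). The methionine call was lost when its 2 groups were fitted alone (0.0729). Without glutamine the ratios were 0.939, 1.14 and 1.1, also below Control without overlap, and the change was -0.30 ± 0.14 (adjusted p = 0.10), which passed with the lysate as a block (-0.30, adjusted p = 0.0191), and without arginine it was -0.14 ± 0.14 (adjusted p = 0.539).

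**Figure D2:**
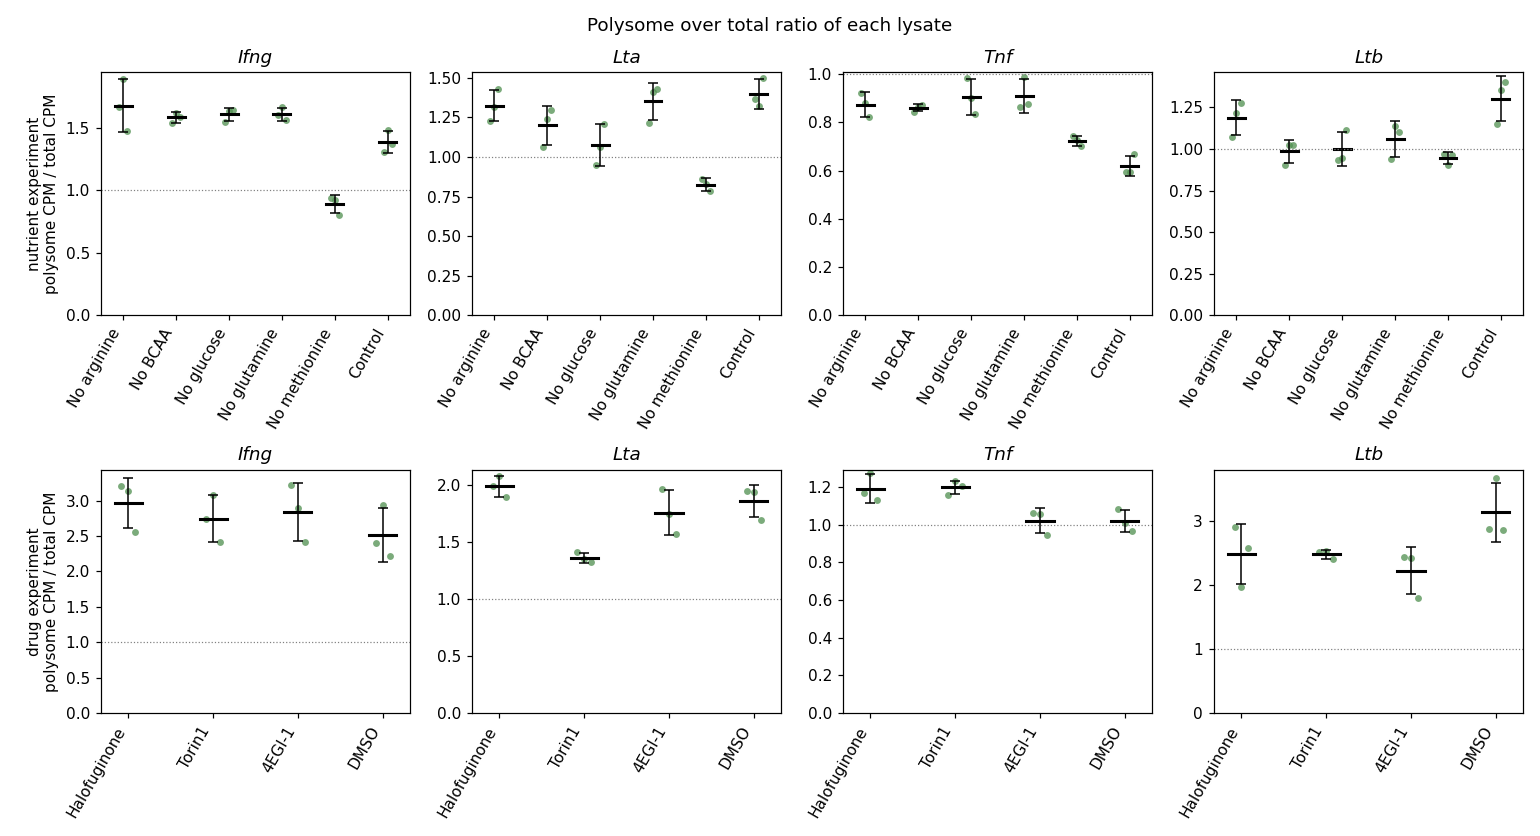
Polysome CPM over total CPM of each lysate (vertical axis, a ratio without unit, from 0), with the nutrient experiment above and the drug experiment below. Points are single lysates, horizontal bars the mean of 3 and whiskers the SD, and the dotted line marks a ratio of 1. For Tnf the Control lysates, at 0.594 to 0.669, lie below all 15 deprived ones, and for Ifng and Lta the methionine-free lysates lie lowest.

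Within single conditions of the nutrient experiment, polysome RNA was set against total RNA of the same group. In Control (65.7% of all genes called) Ifng, Lta and Ltb were higher in polysome RNA by 0.48, 0.48 and 0.38 on the log2 scale and Tnf was lower by -0.69 ± 0.094 (adjusted p = 1.22e-07). Ifng was higher in polysome RNA without arginine (71% of all genes called), BCAA (68.9%), glucose (65.8%) and glutamine (69.1%), with log2 differences between 0.66 and 0.75. Without methionine (78% of all genes called) Ifng differed by -0.17 ± 0.10 (adjusted p = 0.122), and it passed as lower with the lysate as a block (-0.17, adjusted p = 0.0121). Lta was higher in polysome RNA without arginine and glutamine (0.40 and 0.44) and lower without methionine (-0.28 ± 0.11, adjusted p = 0.0206), a call lost without methionine-free lysate 2 or 3 (adjusted p = 0.0634 and 0.114). Lta was also called higher without BCAA (0.26 ± 0.11, adjusted p = 0.0338), which did not pass with RLE size factors (0.0532), with DESeq2 (0.0510), in a fit of 2 conditions alone (0.0823) or without BCAA-free lysate 2 or 3 (0.124 and 0.181). Of Ltb, the difference was called without arginine (0.24 ± 0.10, adjusted p = 0.0329), but not with RLE size factors (0.146), with DESeq2 (0.151), in a fit of 2 conditions alone (0.285) or without arginine-free lysate 2 or 3 (0.119 and 0.154). Tnf was lower in polysome RNA without methionine (-0.47 ± 0.093, adjusted p = 3.29e-05) and without BCAA (-0.22 ± 0.093, adjusted p = 0.0399), the second lost without any 1 of the 3 BCAA-free lysates (adjusted p between 0.104 and 0.138). Its differences without arginine, glucose and glutamine were -0.19, -0.15 and -0.13 (adjusted p = 0.0681, 0.167 and 0.205), and all 3 passed with the lysate as a block (0.00528, 0.0396 and 0.0404). The arginine value also passed with RLE size factors (-0.27, adjusted p = 0.0125), with DESeq2 (0.0102) and in a fit of 2 conditions alone (-0.32, adjusted p = 0.00363), and the glucose value in a fit of 2 conditions alone (-0.24, adjusted p = 0.0158).

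In the drug experiment, Ifng and Lta fell with Torin1 and with 4EGI-1 in both fractions, Tnf fell with 4EGI-1 in both and with Torin1 in total RNA, and no member passed the test with halofuginone. The libraries of this experiment were labelled polyA RNA and those of the nutrient experiment total RNA, so levels were not compared between the experiments. The 3 drugs share the 3 DMSO libraries. In total RNA, members called were 0 of 4 with halofuginone (0.279% of 12535 genes called), 3 of 4 with Torin1 (26.7%) and 3 of 4 with 4EGI-1 (26.4%). In polysome RNA they were 0 of 4 with halofuginone (0.0491% of 12223 genes), 2 of 4 with Torin1 (16.8%) and 4 of 4 with 4EGI-1 (28.6%). Beside the counts of 0 with halofuginone by edgeR, Tnf in total RNA and Tnf and Ifng in polysome RNA had an unadjusted p under 0.05, and DESeq2 called 0 of 4 in either fraction. The median log2 fold change of the 4 members in total RNA was 0.13, -0.61 and -1.15 with halofuginone, Torin1 and 4EGI-1, beside medians of all genes between 0.0024 and 0.012.

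**Figure D3:**
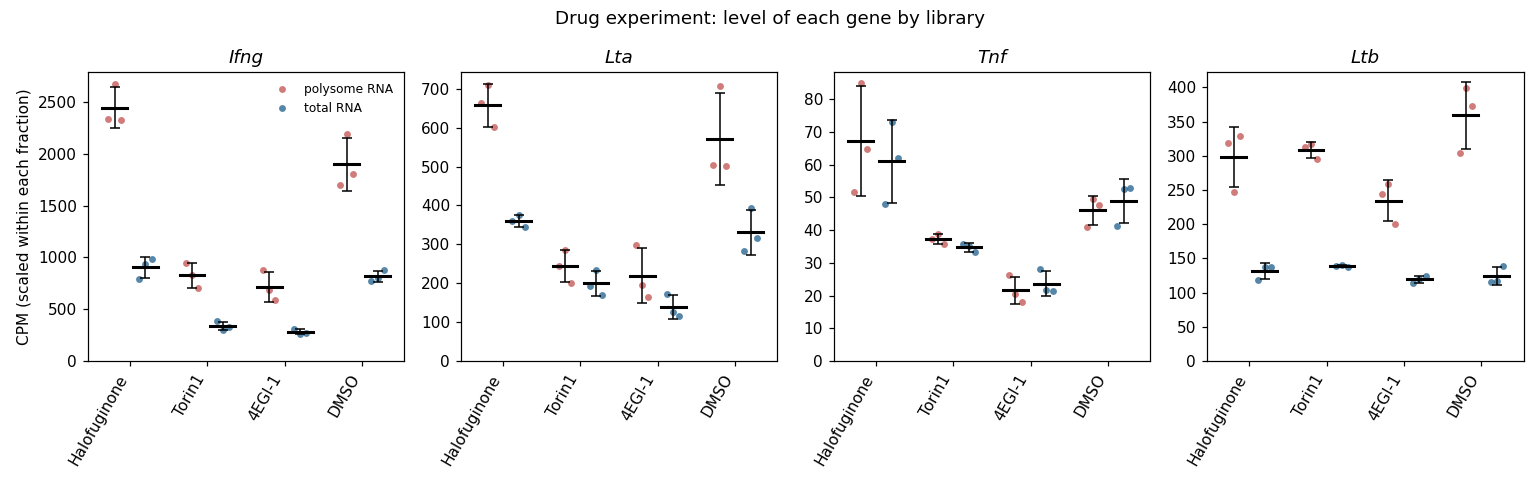
Level of each gene in every library of the drug experiment, in CPM scaled within each fraction (vertical axis, from 0; the axes differ between genes), with polysome RNA in red at the left of each pair and total RNA in blue. Points are single libraries, horizontal bars the mean of 3 and whiskers the SD. Total Ifng lies between 266 and 384 CPM with Torin1 and 4EGI-1, below the 777 CPM of the lowest DMSO library.

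Ifng had 384, 302 and 329 CPM in total RNA with Torin1 and 310, 266 and 273 CPM with 4EGI-1, against 777, 803 and 874 CPM with DMSO. Both drugs lay below DMSO without overlap, with log2 fold changes of -1.27 ± 0.099 (adjusted p = 1.33e-07) and -1.53 ± 0.099 (1.52e-08), or 0.413 and 0.346 times the DMSO level. Polysome RNA gave 947, 832 and 708 CPM with Torin1 and 878, 682 and 589 CPM with 4EGI-1, against 1702, 2190 and 1809 CPM with DMSO. There the log2 fold changes were -1.20 ± 0.16 (adjusted p = 0.000115) and -1.41 ± 0.16 (1.90e-05). With halofuginone Ifng averaged 904 ± 102 CPM in total RNA, beside 818 ± 50.4 CPM with DMSO, and 2446 ± 195 CPM in polysome RNA, beside 1900 ± 256 CPM with DMSO (SD, n = 3 each). All 3 halofuginone polysome libraries were above those of DMSO, and neither difference passed (adjusted p = 0.692 and 0.386). In total RNA the CD8 T cell markers summed to 8248 to 9721 CPM with Torin1 and 8537 to 11300 CPM with 4EGI-1, against 9888 to 10980 CPM with DMSO, so that Torin1 alone of these 2 lay wholly below DMSO. Over all drug total RNA libraries Cd8a had 335 to 459 CPM, Cd8b1 275 to 325 CPM and Cd3e 199 to 261 CPM. These sums too rest mostly on Cd3d, Cd3g and Gzmb. With halofuginone the CD8 marker sums in total RNA were 10510 to 10650 CPM, within the DMSO range. In drug polysome RNA they were 10480 to 13760 CPM with Torin1, below the 14440 to 15080 CPM with DMSO. Halofuginone polysome libraries had 15160 to 19200 CPM, above DMSO, and those of 4EGI-1 had 12270 to 21190 CPM, which overlapped with DMSO. Of the CD4 T cell markers, Zbtb7b had 5.92 to 19.8 CPM and Foxp3 at most 2.76 CPM over all drug total RNA libraries. In total RNA the CD4 T cell markers summed to 6.85 to 10.6 CPM with Torin1, below, and 18.5 to 19.9 CPM with 4EGI-1, above the 11.7 to 13.1 CPM with DMSO. The part of these CD8 and CD4 marker sums in the member results was not tested.

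Lta had 194, 235 and 171 CPM in total RNA with Torin1 and 173, 126 and 117 CPM with 4EGI-1, against 283, 394 and 315 CPM with DMSO. Again no library of either drug reached DMSO, and the log2 fold changes were -0.73 ± 0.14 (adjusted p = 0.000959) and -1.25 ± 0.14 (7.68e-06). In polysome RNA Lta had 246, 285 and 202 CPM with Torin1 and 299, 195 and 165 CPM with 4EGI-1, against 505, 706 and 501 CPM with DMSO, at log2 fold changes of -1.22 ± 0.20 (adjusted p = 0.000454) and -1.38 ± 0.20 (0.000143). With halofuginone Lta averaged 360 ± 15.9 CPM in total and 658 ± 55.2 CPM in polysome RNA, beside 331 ± 56.9 and 570 ± 117 CPM with DMSO (SD, n = 3 each), and overlapped with DMSO in both (adjusted p = 0.825 and 0.683).

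Tnf had 35.8, 35.1 and 33.2 CPM in total RNA with Torin1 and 28.0, 21.7 and 21.4 CPM with 4EGI-1, against 41.2, 52.7 and 52.7 CPM with DMSO. The 3 groups did not overlap, and the log2 fold changes were -0.49 ± 0.14 (adjusted p = 0.0137) and -1.04 ± 0.14 (4.31e-05). Leaving out DMSO replicate 4 took the Torin1 change to an adjusted p of 0.0556. In polysome RNA Tnf had 26.2, 20.3 and 18.1 CPM with 4EGI-1, against 40.9, 49.4 and 47.8 CPM with DMSO (-1.09 ± 0.17, adjusted p = 0.000307). Polysome Tnf with Torin1, at 37.4, 38.8 and 35.7 CPM, also lay below DMSO but did not pass (-0.30 ± 0.17, adjusted p = 0.236). With halofuginone it had 51.6, 84.9 and 64.8 CPM in polysome RNA, above DMSO without overlap, at a log2 fold change of 0.54 ± 0.17 (adjusted p = 0.262), and 47.8, 73.1 and 62.1 CPM in total RNA, which overlapped with DMSO (0.32 ± 0.14, adjusted p = 0.532).

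Ltb was the member with no call in total RNA here too, with group means between 119 ± 5.45 CPM with 4EGI-1 and 139 ± 1.32 CPM with Torin1, beside 124 ± 12.8 CPM with DMSO (SD, n = 3 each) and adjusted p of 0.169 or more. In polysome RNA it had 245, 259 and 201 CPM with 4EGI-1, against 305, 400 and 372 CPM with DMSO. These groups did not overlap, and Ltb fell by 0.61 ± 0.15 on the log2 scale (adjusted p = 0.00500). With Torin1 and halofuginone polysome Ltb overlapped with DMSO, at log2 fold changes of -0.22 and -0.27 (adjusted p = 0.316 and 0.457).

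Torin1 was set against 4EGI-1 directly in total RNA, where 37.3% of all genes were called. All 4 members were higher with Torin1, Tnf by 0.55 ± 0.14 (adjusted p = 0.00606), Lta by 0.53 ± 0.14 (0.00722), Ifng by 0.26 ± 0.098 (0.0472) and Ltb by 0.21 ± 0.083 (0.0495) on the log2 scale. The Ifng call was lost without Torin1 replicate 1 or 4 or 4EGI-1 replicate 3 or 4 (adjusted p between 0.0635 and 0.257). The Ltb call was lost without 4EGI-1 replicate 2 or 3 or any 1 of the Torin1 replicates (adjusted p between 0.0756 and 0.137). With the replicate number as a block, Ifng (0.21, adjusted p = 0.12) and Ltb (0.19, adjusted p = 0.0643) did not pass.

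The change of the polysome over total ratio against DMSO was called for 0 of 4 members with each drug, with 0% of 12745 genes called with halofuginone, 1.79% with Torin1 and 0.565% with 4EGI-1. By edgeR at an unadjusted p under 0.05, 1 member (Ltb) differed with halofuginone, 0 with Torin1 and 1 (Ltb) with 4EGI-1. DESeq2 called 0 with halofuginone, 0 with Torin1 and 1 with 4EGI-1, where Ltb passed as lower (-0.55, adjusted p = 0.0427), while edgeR gave -0.50 ± 0.17 (adjusted p = 0.139). Lta ratios with Torin1 were 1.41, 1.35 and 1.32, against 1.95, 1.94 and 1.70 with DMSO, without overlap, at a log2 change of -0.45 ± 0.26 (adjusted p = 0.489). Tnf ratios with Torin1 were 1.16, 1.23 and 1.20, against 1.09, 1.01 and 0.968 with DMSO, also without overlap (0.24 ± 0.24, adjusted p = 0.700). With halofuginone they were 1.17, 1.28 and 1.13, again above DMSO (0.24 ± 0.23, adjusted p = 0.908). Ltb ratios were 2.51, 2.53 and 2.40 with Torin1 and 2.44, 2.43 and 1.80 with 4EGI-1, all below the 2.88, 3.67 and 2.86 with DMSO. The Torin1 change of Ltb was -0.33 ± 0.17 and did not pass (adjusted p = 0.402). How many of all genes lay apart in this way was not counted, so the lack of overlap is no result about the members.

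Polysome RNA held more of Ifng, Lta and Ltb than total RNA in every drug group. In DMSO (59.3% of all genes called) the log2 differences were 1.33, 0.90 and 1.64. With halofuginone (57.2%) they were 1.56, 0.99 and 1.30, with Torin1 (55.5%) 1.45, 0.45 and 1.31, and with 4EGI-1 (51.8%) 1.51, 0.84 and 1.14. The Lta difference with Torin1 (adjusted p = 0.0454) was lost without any 1 of its 3 lysates (adjusted p between 0.0881 and 0.155) and with RLE size factors (0.0554). The log2 difference of Tnf lay between 0.023 with DMSO and 0.26 with halofuginone and Torin1 and passed in none of the 4 groups (adjusted p of 0.178 or more), whereas with the lysate as a block it passed with halofuginone and Torin1 (adjusted p = 0.0192 and 0.0198).

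Of the 12 receptor genes listed for these cytokines, 9 were tested. In total RNA, 2 rose and 4 fell without BCAA, glucose or glutamine each, 1 rose and 3 fell without methionine and 0 were called by edgeR without arginine, where 1 had an unadjusted p under 0.05. The shares of all genes called were 30.1%, 40.8%, 39%, 35.2% and 9.24% in that order, so the 4 of 9 without methionine are near the share of all genes. Il2ra, the alpha chain of the high-affinity IL-2 receptor, fell without BCAA (-0.41), glucose (-0.59), glutamine (-0.93) and methionine (-0.34), and Il2rb, the beta chain, fell in the same 4 deprivations by 0.40, 0.43, 0.42 and 0.40. Tnfrsf14, a receptor for lymphotoxin alpha and LIGHT, fell in those 4 as well (-0.41, -0.36, -0.41 and -0.32). Tnfrsf1a, the TNF receptor with a death domain, rose without BCAA (0.33), glucose (0.44), glutamine (0.78) and methionine (0.68). The other TNF receptor, Tnfrsf1b, fell without BCAA (-0.24), glucose (-0.67) and glutamine (-0.28). Of the interferon gamma receptor chains, Ifngr1 rose without glucose (0.39) and Ifngr2 without BCAA (0.46) and glutamine (0.86).

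In polysome RNA of the nutrient experiment, 1 receptor gene rose and 2 fell without arginine, 1 rose and 4 fell without BCAA, 2 rose and 4 fell without glucose, 3 rose and 4 fell without glutamine and 1 rose and 4 fell without methionine. Of all genes, 40.5%, 56.1%, 59%, 64.5% and 69% were called there, so these counts are near the background and are no result about the receptors. Il2ra and Tnfrsf14 fell in all 5, from -0.23 and -0.25 without arginine to -1.23 for Il2ra without glutamine and -0.92 for Tnfrsf14 without methionine. Il2rb and Tnfrsf1b fell in each but the arginine-free cells. Il2rg, the common gamma chain, rose in all 5, between 0.45 without glucose and 1.00 without methionine. Ifngr1 rose without glucose (0.47), and Ifngr2 (0.69) and Tnfrsf1a (0.31) rose without glutamine. The ratio of Tnfrsf1a fell without BCAA (-0.44), glucose (-0.56), glutamine (-0.61) and methionine (-0.64), those of Il2ra and Tnfrsf14 fell without BCAA (-0.30 and -0.55), glutamine (-0.45 and -0.51) and methionine (-0.66 and -0.68), and that of Il2rb fell without BCAA (-0.32) and glutamine (-0.34). The ratio of Ifngr2 fell without BCAA (-0.58), that of Tnfrsf1b fell without glutamine (-0.37), and that of Il2rg rose without methionine (0.73).

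With Torin1, 4 receptor genes rose and 2 fell in total RNA (26.7% of all genes called): Ifngr1 (0.83), Ifngr2 (0.45), Tnfrsf1b (0.37) and Il2rg (0.32) rose, and Tnfrsf1a (-0.41) and Il2rb (-0.29) fell. In polysome RNA (16.8%) Ifngr1 (0.83), Il2rg (0.60) and Tnfrsf1b (0.56) rose. With 4EGI-1 Il2ra alone was called in total RNA, as lower (-0.50, 26.4% of all genes called), and 0 of the 9 were called in polysome RNA, beside 28.6% of all genes (2 at an unadjusted p under 0.05, edgeR). With halofuginone 0 were called in either fraction, with 1 at an unadjusted p under 0.05 in each.

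Of 21 listed transcription factors of cytokine genes, 19 were tested. In total RNA, 3 rose and 0 fell without arginine, 9 and 0 without BCAA, 9 and 2 without glucose, 7 and 4 without glutamine and 11 and 1 without methionine, beside 9.24%, 30.1%, 40.8%, 39% and 35.2% of all genes tested in that order. Fos, a subunit of AP-1, had the largest change of the list in each deprivation, with log2 fold changes of 1.01, 1.95, 1.63, 2.43 and 2.92 in that order. Tbx21, the T-bet factor of the Ifng locus, rose in all 5 deprivations (0.23, 0.81, 0.52, 1.25 and 1.08), among them the glucose-free and glutamine-free cells in which Ifng fell. Irf4, a factor of effector differentiation, fell without glucose (-1.03), and Eomes, a T-box factor, fell without glutamine (-0.93). With 4EGI-1 (26.4% of all genes called), 1 rose and 7 fell, among them Eomes (-1.28) and Tbx21 (-1.17), while Fosl2 rose (0.84). With Torin1 (26.7%), 5 rose and 3 fell, with Tbx21 (-0.82) and Nfatc2 (-0.77) lower and Irf4 (0.72) higher, and with halofuginone 0 were called by edgeR, with 4 at an unadjusted p under 0.05.

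RNA-binding proteins of cytokine mRNAs were followed by a list of 16, of which 13 were tested. In total RNA, 1 rose and 0 fell without arginine, 2 and 2 without BCAA, 5 and 5 without glucose, 2 and 5 without glutamine and 3 and 1 without methionine. Beside 9.24%, 30.1%, 40.8%, 39% and 35.2% of all genes tested in that order, the counts without arginine, BCAA and methionine are near the background and are no result about the list. Arid5a, known to stabilise Il6 mRNA, rose in all 5 deprivations (0.39, 1.08, 0.67, 1.23 and 0.94). Zfp36, which encodes tristetraprolin, a protein that binds AU-rich elements and speeds the decay of Tnf mRNA, rose without glucose (0.65), glutamine (0.58) and methionine (1.05). Its relative Zfp36l2 fell without BCAA (-0.47) and glutamine (-0.61), and Rc3h1, which encodes the decay factor roquin, fell without glucose (-0.90). In the polysome over total ratio, Zfp36l2 fell without BCAA (-0.52), glucose (-0.45), glutamine (-0.44) and methionine (-0.64). Ybx1 fell in that ratio without arginine (-0.38) and glucose (-0.84) and rose without glutamine (0.29), and Gapdh, a glycolytic enzyme reported to bind Ifng mRNA in T cells, fell without glucose (-0.80). With Torin1 the ratios of Gapdh (-1.28) and Ybx1 (-1.25) fell, and in total RNA (26.7% of all genes called) 5 of the list rose and 3 fell, Zc3h12d (1.12) and Zfp36 (0.83) among the higher.

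The genes that respond to interferon gamma, a list of 25 with 23 tested, did not follow Ifng in direction throughout. In total RNA, 2 rose and 3 fell without arginine, 12 and 4 without BCAA, 7 and 9 without glucose, 12 and 3 without glutamine and 7 and 4 without methionine, beside 9.24%, 30.1%, 40.8%, 39% and 35.2% of all genes tested in that order. Without glutamine, where Ifng fell, Irf1 (1.24), Cd274 (1.01) and Cxcl10 (0.94) rose, and without glucose Iigp1 (-1.58) and Ifi47 (-1.38) fell while Cxcl10 (1.34) rose. With 4EGI-1, 0 rose and 13 fell in each fraction (26.4% of all genes called in total and 28.6% in polysome RNA), with Iigp1 (-1.59), Irgm1 (-1.42) and Socs1 (-1.35) the largest in total RNA. With Torin1, where Ifng fell too, 10 rose and 2 fell in total RNA (26.7% of all genes called), with Gbp5 (1.60), Gbp2 (1.56) and Gbp3 (1.24) the largest. The median log2 fold change of the list was -0.41 with 4EGI-1 and 0.16 with Torin1, beside 0.0074 and 0.012 for all genes.

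Of 10 listed NF-kB feedback genes, all tested, 2 rose and 1 fell without arginine, 2 and 1 without BCAA, 3 and 3 without glucose, 6 and 1 without glutamine and 4 and 0 without methionine in total RNA. Beside 9.24%, 30.1%, 40.8%, 39% and 35.2% of all genes tested in that order, the counts without BCAA and methionine are near the background and are no result about the list. Nfkbiz, an inducible co-factor of NF-kB, rose without arginine (0.36), BCAA (0.89), glutamine (0.98) and methionine (0.67). Nfkbid fell without glucose (-0.80), with Torin1 (-1.05) and with 4EGI-1 (-0.94), and Tnfaip3, the A20 enzyme, rose with 4EGI-1 (0.78).

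Of 21 other cytokines and ligands of the TNF family, 13 were tested, and 0 rose and 11 fell in total RNA with 4EGI-1 (26.4% of all genes called), with a median log2 fold change of -0.93, beside 0.0074 for all genes. Il24 (-1.71), Fasl, the death ligand of cytotoxic cells (-1.14), and Tnfsf11 (-1.08) had the largest changes there. With Torin1 (26.7%), 4 rose and 2 fell, with Tnfsf4, which encodes the OX40 ligand, (1.81) and Tnfsf8, which encodes the CD30 ligand, (1.54) highest. Halofuginone (0.279%) had 1 call, Tnfsf8 (0.60). Of the deprivations, glucose gave 3 higher and 8 lower, with Tnfsf9, which encodes the 4-1BB ligand (-1.57), and Lif (-1.28) lowest. Glutamine gave 6 higher and 5 lower, methionine 5 and 3, BCAA 5 and 2 and arginine 4 and 0. Of all genes tested, 40.8%, 39%, 35.2%, 30.1% and 9.24% were called in these 5 comparisons in that order. Tnfsf9 also fell without BCAA (-0.72), glutamine (-2.31) and methionine (-1.72), and Il16 rose in all 5 deprivations (0.34, 0.85, 1.00, 1.23 and 1.27 in the order arginine, BCAA, glucose, glutamine and methionine).

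Across the 18 total RNA libraries of the nutrient experiment, which share conditions, depth and scaling, likeness was measured as Pearson's r of log2(CPM + 0.5) over 12642 genes. Lta and Tnf ran most alike among the members (r = 0.93), Ifng correlated with Tnf at 0.74 and with Lta at 0.68, and Ltb correlated with the other 3 between -0.12 and 0.0021. The genes most like Ifng were Ccl4, a chemokine of activated CD8+ T cells (0.97), Sema7a (0.92) and Cisd2 (0.92). Those most like Tnf were Socs1, an inhibitor of cytokine signalling (0.95), Jkamp (0.94) and Metrnl (0.93), and those most like Lta were Mfap3 (0.96), Ube2s (0.96) and Fes (0.96). The highest values for Ltb were lower, with Trmt112 (0.86), Pebp1 (0.84) and Galk1 (0.84). These correlations describe the libraries measured and are not tests.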

How the data were processed

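The authors deposited whole-number read counts per gene for 60 libraries, 14695 genes in all, of which 14246 have a symbol. Per the submitters' processing notes, FastQC, MultiQC, Trimmomatic, STAR, HTSeq and edgeR were used with build GRCm39. Their versions and order are not given in the sources used here. Genes were filtered with filterByExpr (minimum count 10), scaled by TMM and tested with edgeR 4.0.16 in R 4.3.3 (quasi-likelihood F test, Benjamini-Hochberg adjustment over all genes, threshold 0.05). Each fraction of each experiment was fitted over all its groups, and the ratio in a joint fit of both fractions. A spike-in was added per the labels' protocols but was not used here, so absolute amounts are not measured. Gene lengths were not used here, so levels are compared between groups and never between genes. Intervals at 95% rest on the SE of the fit. Whether the libraries of 2 groups overlapped is given for the members only, and how many of all genes lay apart was not counted.

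Total and polysome RNA of one lysate are paired by design, and deviations from the group means correlated at 0.117 on average in the nutrient (range -0.050 to 0.402) and 0.154 in the drug experiment (-0.023 to 0.420). Alternatives were RLE size factors, DESeq2 1.42.0, no filter, a scale without rRNA-derived and mitochondrial entries, only the groups compared, the replicate number or lysate as a block, and leaving out each library. The fits were also run on simulated counts of independent libraries. These hold no pairing by lysate, so that run cannot test the ratio fit on paired data. The 4 members analysed are named throughout, with the 3 genes most like each, the receptor genes called, and up to 3 called genes of each other list per comparison with the largest change. A gene so named was at times followed into other comparisons, chosen after its values were seen. Members and lists were chosen with earlier results of these data known.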

Additional observations from a re-analysis of the deposited data

How the results depend on the processing

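Of 93 member values called, 73 kept their direction and side of the threshold in every alternative run, and 20 lost the call in at least 1. Of 955 recomputed values of called members, 884 stayed the same, 71 lost the call and 0 changed direction. Among those, 52 of 477 calls were lost on leaving out 1 library or lysate, and 19 of 478 under the other settings. The causes were not tested.

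The count of members called in the ratio became 2 without arginine (1 as reported) and 3 without glutamine (1 as reported) with the lysate as a block, a fit that called 23.1% and 40.1% of all genes there, beside 16.5% and 35.2% as reported. It became 1 without BCAA and 1 without glucose (2 each as reported) with RLE size factors, with DESeq2 and with only the groups compared, and 1 with 4EGI-1 by DESeq2 (0 as reported). In the ratio with the lysate as a block, the counts without glucose and without methionine rose too. There Lta passed without glucose (adjusted p = 0.00435, edgeR) and Tnf without methionine (adjusted p = 0.0272). Between polysome and total RNA without glucose the count became 2 (1 as reported) with the lysate as a block and with only the groups compared. With that block Tnf also passed between the fractions without arginine, without glutamine, with halofuginone and with Torin1, and Ifng without methionine. Replicate numbers within a fraction were not taken to pair libraries in the reported fits, since no source used here states such a block. Same-numbered pairs correlated between -0.29 and 0.55, with means of 0.0590 and 0.139 in nutrient total and polysome RNA. In drug total and polysome RNA the means were 0.107 and 0.0819. Lysate pairs, which are paired by design, averaged 0.117 in the nutrient and 0.154 in the drug experiment and reached as low as -0.050. These correlations therefore cannot decide whether same-numbered libraries are paired. With the replicate number as a block in total RNA, the members called became 2 without glutamine against without BCAA, 2 without methionine against without arginine, 1 without methionine against without BCAA and 2 with Torin1 against 4EGI-1, where Ifng and Ltb did not pass (1, 1, 0 and 4 as reported by edgeR), and in polysome RNA Lta passed without BCAA (0.18, adjusted p = 0.0456) and without glutamine (0.18, adjusted p = 0.0431).

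On leaving out 1 library, members called in total RNA ranged from 0 to 1 (arginine), 1 to 2 (BCAA) and 2 to 3 (methionine, and Torin1 against DMSO). In polysome RNA they ranged from 1 to 2 (arginine), 2 to 3 (glucose, and glutamine) and 2 to 4 (methionine). In the ratio they ranged from 0 to 1 (arginine), 1 to 2 (BCAA) and 1 to 3 (glucose). Between polysome and total RNA they ranged from 2 to 3 without arginine, 1 to 2 without BCAA (3 as reported) and 1 to 2 without methionine. With Torin1 the count there was 2 on leaving out any 1 lysate of Torin1 (3 as reported). In total RNA, members called ranged from 2 to 3 in glutamine-free against methionine-free and 1 to 2 in methionine-free against arginine-free cells. They ranged from 0 to 2 in methionine-free against BCAA-free and 2 to 3 in Torin1 against 4EGI-1 total RNA (4 as reported).

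The values that changed sign were all uncalled and near 0. Leaving out 1 library, Ltb in total RNA ranged from -0.098 to 0.026 without arginine, -0.039 to 0.0028 without glucose, -0.13 to 0.0015 without methionine and -0.11 to 0.022 with 4EGI-1, and Ifng without glucose against without glutamine from -0.023 to 0.13. The ratio of Lta ranged from -0.086 to 0.016 without glutamine and -0.16 to 0.0058 with 4EGI-1, and that of Tnf from -0.025 to 0.060 with 4EGI-1. Polysome against total RNA, Ltb ranged from -0.052 to 0.043 without BCAA and -0.086 to 0.050 without glucose, and Tnf from -0.014 to 0.063 with DMSO. With RLE size factors and with DESeq2, the Lta ratio without glutamine was 0.086 in both, the Tnf ratio with 4EGI-1 -0.043 and -0.042, polysome against total Tnf with 4EGI-1 -0.0037 and -0.0029, and polysome against total Ltb without glucose -0.0032 and -0.0033. That Ltb value was -0.0096 on the scale without rRNA-derived and mitochondrial entries, -0.0038 with the lysate as a block and -0.087 with only the groups compared. Lta with halofuginone in total RNA was -0.0091 with the replicate block.

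RLE size factors moved the median of all genes in the ratio by 0.13 without glutamine and by 0.082 without glucose, and only the groups compared by 0.12 without methionine. The share of higher among called genes was 49.5% with RLE and 28.4% as reported without glutamine, 51% and 34.3% without glucose, 43% and 29.9% without BCAA, and 26.4% and 50% with 4EGI-1. Genes called in the ratio numbered 392 by DESeq2 and 228 as reported with Torin1. With 4EGI-1 they numbered 375 by DESeq2, 630 with the lysate as a block, 9 with only the groups compared and 72 as reported. Without arginine they were 1326 with only the groups compared and 2162 as reported. With halofuginone DESeq2 called 85 genes in total RNA (35 as reported) and 60 in polysome RNA (6 as reported, 1 with only the groups compared). With 3 libraries per group, Tnf, at as few as 409 reads in a library, is the member with the least depth.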
